A study of Mus musculus with 14 samples.

Results

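Sstr2, P2rx7 and P2rx4 encode receptors that carry signals from outside the cell, and their transcripts were followed through 14 libraries of mouse T-cell acute lymphoblastic leukaemia. The 3 genes are 3 of the 12421 in the deposited count table. Sstr2 and P2rx7 were picked as surface receptors that were lower in the tumours labelled independent than in the other tumours, so that difference chose them and is given below without a test. P2rx4 was added because it is the neighbour of P2rx7 and belongs to the same receptor family.

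SSTR2 is a G protein-coupled receptor for the peptide hormone somatostatin. It couples to inhibitory G proteins of the Gi family, which lower cyclic AMP, and it restrains secretion and growth in endocrine cells. P2X7 is an ion channel opened by high concentrations of ATP outside the cell. In mouse T cells its opening lets calcium and sodium in, triggers the shedding of surface proteins such as CD62L and can kill the cell, and ADP-ribosylation by ART2 enzymes can open it as well. P2X4 is a related channel that opens at lower ATP concentrations and lies largely in endosomes and lysosomes.

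The leukaemias, numbered VTL, were induced by the oncogene Lmo2. The labels do not say which promoter drives Lmo2, and they name the classes without defining them. The independent class (VTL-44, VTL-33, VTL-81) and the evolving class (VTL-153, VTL-25, VTL-21) held 3 tumours each, and every one of these had 1 library from mice fed doxycycline (Dox, 600 mg/kg of food) and 1 from mice without it. VTL-24 and VTL-19, the 2 tumours of the dependent class, had 1 library each, without Dox. Thymocytes were first given to irradiated C57BL/6-Ly5.1;FVB F1 mice. Frozen leukaemia cells were then passed into C57BL/6-Rag1-/- mice, whose own lymphocytes do not mature, and RNA was taken from spleen cells sorted for both CD45.1 and CD45.2. Replicates are therefore separate tumours, each seen in 1 library per condition, and age and sex of the mice were not given in the sources used here. The series design speaks of Dox activation, but Lmo2 was lower with Dox in all 6 tumours, at 0.198 to 8.46 CPM against 9.28 to 708 CPM without it. With and without Dox are used here as the labels give them.

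Libraries held 18214415 to 24048281 counts. Levels are CPM, counts scaled to a common library size after TMM correction. The 7 T lineage markers (Cd3d, Cd3e, Cd3g, Cd2, Thy1, Lck and Bcl11b) were present throughout, at a summed 3031 to 5187 CPM, so the libraries carried the T-cell transcripts that the labels imply. Myeloid markers (9 of 9 in the table) summed to between 163 and 2005 CPM in independent tumours with Dox and between 65.8 and 1427 CPM without. In evolving tumours they summed to between 19.2 and 169 CPM with Dox and between 16.4 and 213 CPM without, and in dependent tumours to 27.7 and 96.9 CPM. B cell markers reached 6287 CPM in VTL-21 with Dox and stayed at 30.8 to 780 CPM in the other 13 libraries. Of these markers, 3 of 8 were in the table. Erythroid markers (5 of 7) summed to 0.0935 to 130 CPM, NK cell markers (2 of 5) to 68.8 to 1526 CPM, and stromal and endothelial markers (3 of 6) to 140 to 781 CPM. No listed marker was at 0 throughout a group. In bulk RNA, fewer cells of a type and less RNA per cell cannot be told apart.

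The library of VTL-25 with Dox stood apart from its partner. Its T-cell receptor beta variable counts came from Trbv5 (99.6%), whereas Trbv24 led without Dox (78.7%), and its deviations from the group mean hardly followed those of its partner across genes (r = 0.0268). In the other 5 tumours sequenced both ways the same Trbv gene led in both libraries. The correlation was also low in the evolving tumours VTL-153 (0.17) and VTL-21 (0.192), and was 0.517 to 0.702 in the independent tumours. Changes with Dox in the evolving tumours are therefore given with and without VTL-25 for the 3 receptors and for the other genes named with a fitted change. The medians of gene lists include VTL-25.

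Sstr2 (ENSMUSG00000047904) lies on the plus strand of chromosome 11, at chr11:113619342-113626028 on mm10. It sits wholly inside the span of Slc39a11, which runs on the minus strand, although their exons share 0 bases. P2rx7 (ENSMUSG00000029468) lies at chr5:122643911-122691432 on the plus strand. P2rx4 (ENSMUSG00000029470) follows it on the same strand at chr5:122707544-122729738, with 16.1 kb between the end of P2rx7 and the start of P2rx4 and 63.6 kb between their start sites.

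The promoters are shown because Sstr2 and P2rx7 lie on different chromosomes and were high in the same libraries, while P2rx4 beside P2rx7 was not. Each runs from 250 bases before to 50 bases after a RefSeq start site on GRCm38.p6. Capitals mark letters of E-boxes (CANNTG), of the GATA motif (GATAA, or TTATC where it is on the other strand) and of the Ikaros core (TGGGAA). Both strands were searched, and no match overlapped another.
Sstr2, chr11:113619077-113619376, plus strand: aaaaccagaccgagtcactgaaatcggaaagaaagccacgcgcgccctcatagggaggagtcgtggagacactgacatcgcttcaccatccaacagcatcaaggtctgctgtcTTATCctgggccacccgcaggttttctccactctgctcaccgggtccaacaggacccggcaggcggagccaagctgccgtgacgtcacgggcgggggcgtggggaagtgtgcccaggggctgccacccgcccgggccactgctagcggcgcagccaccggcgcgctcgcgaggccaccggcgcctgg
P2rx7, first start, chr5:122643677-122643976, plus strand: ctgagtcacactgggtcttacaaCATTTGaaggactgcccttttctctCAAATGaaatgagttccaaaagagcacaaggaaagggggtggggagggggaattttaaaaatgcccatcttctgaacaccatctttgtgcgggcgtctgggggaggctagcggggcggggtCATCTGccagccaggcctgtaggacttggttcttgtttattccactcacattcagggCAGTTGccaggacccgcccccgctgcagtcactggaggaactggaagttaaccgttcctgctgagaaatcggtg
P2rx7, second start, chr5:122650133-122650432, plus strand: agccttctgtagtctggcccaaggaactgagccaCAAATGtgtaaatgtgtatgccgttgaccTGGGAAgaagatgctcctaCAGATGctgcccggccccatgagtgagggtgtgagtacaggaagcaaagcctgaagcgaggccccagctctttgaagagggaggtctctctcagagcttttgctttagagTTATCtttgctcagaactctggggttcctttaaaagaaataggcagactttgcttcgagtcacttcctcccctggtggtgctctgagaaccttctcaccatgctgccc
P2rx4, chr5:122707294-122707593, plus strand: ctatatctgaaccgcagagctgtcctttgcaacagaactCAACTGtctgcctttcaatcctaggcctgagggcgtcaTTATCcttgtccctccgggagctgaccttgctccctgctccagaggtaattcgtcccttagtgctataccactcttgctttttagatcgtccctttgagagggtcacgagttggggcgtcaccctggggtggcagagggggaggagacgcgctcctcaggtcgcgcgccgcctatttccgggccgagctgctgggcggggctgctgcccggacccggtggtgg

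The Sstr2 promoter held 0 E-boxes and 1 GATA motif at −137 from the start, and it was rich in CpG, with 27 CpG pairs and 66.3% G and C. The first P2rx7 promoter held 4 E-boxes, at −227, −202, −81 and −24, with 8 CpG pairs and 53.3% G and C. The second held 2 E-boxes, at −216 and −168, a GATA motif at −58, an Ikaros core at −187 and 4 CpG pairs. P2rx4 had 1 E-box at −211, 1 GATA motif at −173 and 18 CpG pairs. Of all 32851 mouse promoters of this length in RefSeq, 72.3% held an E-box, 25.4% a GATA motif and 25.6% an Ikaros core, and the median held 7 CpG pairs. No motif was common to all 4 windows. A match describes the letters only, and counts per gene do not separate the starts of P2rx7.

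Sstr2 was abundant in 5 libraries and close to the limit of counting in the other 9. In independent tumours with Dox it had 0.195 CPM in VTL-44, 0.176 CPM in VTL-33 and 0.995 CPM in VTL-81. Without Dox these tumours had 0.397, 0.391 and 0.259 CPM, in the same order of tumours. All 6 of these libraries were low, and each rested on 4 to 18 reads.

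In evolving tumours with Dox, Sstr2 had 0.253 CPM in VTL-153, 1.78 CPM in VTL-25 and 0.589 CPM in VTL-21. Without Dox the same tumours had 32.8, 98.0 and 57.7 CPM. Of the dependent tumours, VTL-24 had 50.4 CPM and VTL-19 had 70.4 CPM. Evolving tumours with Dox thus lay at the level of the independent tumours, and evolving tumours without Dox at the level of the dependent ones.

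P2rx7 divided the libraries in the same way but was never near 0. It had 32.7, 65.0 and 64.9 CPM with Dox in VTL-44, in VTL-33 and in VTL-81 of the independent class, against 56.1, 45.7 and 47.0 CPM without Dox. It had 36.9, 106 and 39.4 CPM with Dox in VTL-153, in VTL-25 and in VTL-21 of the evolving class, against 283, 244 and 206 CPM without Dox. Of the dependent tumours, VTL-24 had 559 CPM and VTL-19 had 243 CPM. VTL-24 stood well above the other 4 high libraries, and VTL-25 with Dox was the highest of the low ones.

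P2rx4 was low and even. Its levels were 7.94, 10 and 11.8 CPM in VTL-44, in VTL-33 and in VTL-81 with Dox, against 10.6, 7.21 and 8.41 CPM without Dox. They were 6.83, 16.7 and 9.48 CPM in VTL-153, in VTL-25 and in VTL-21 with Dox, against 16.3, 12.4 and 10.3 CPM without Dox. VTL-24 had 10.3 CPM and VTL-19 had 12.1 CPM. All groups overlapped.

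**Figure D1:**
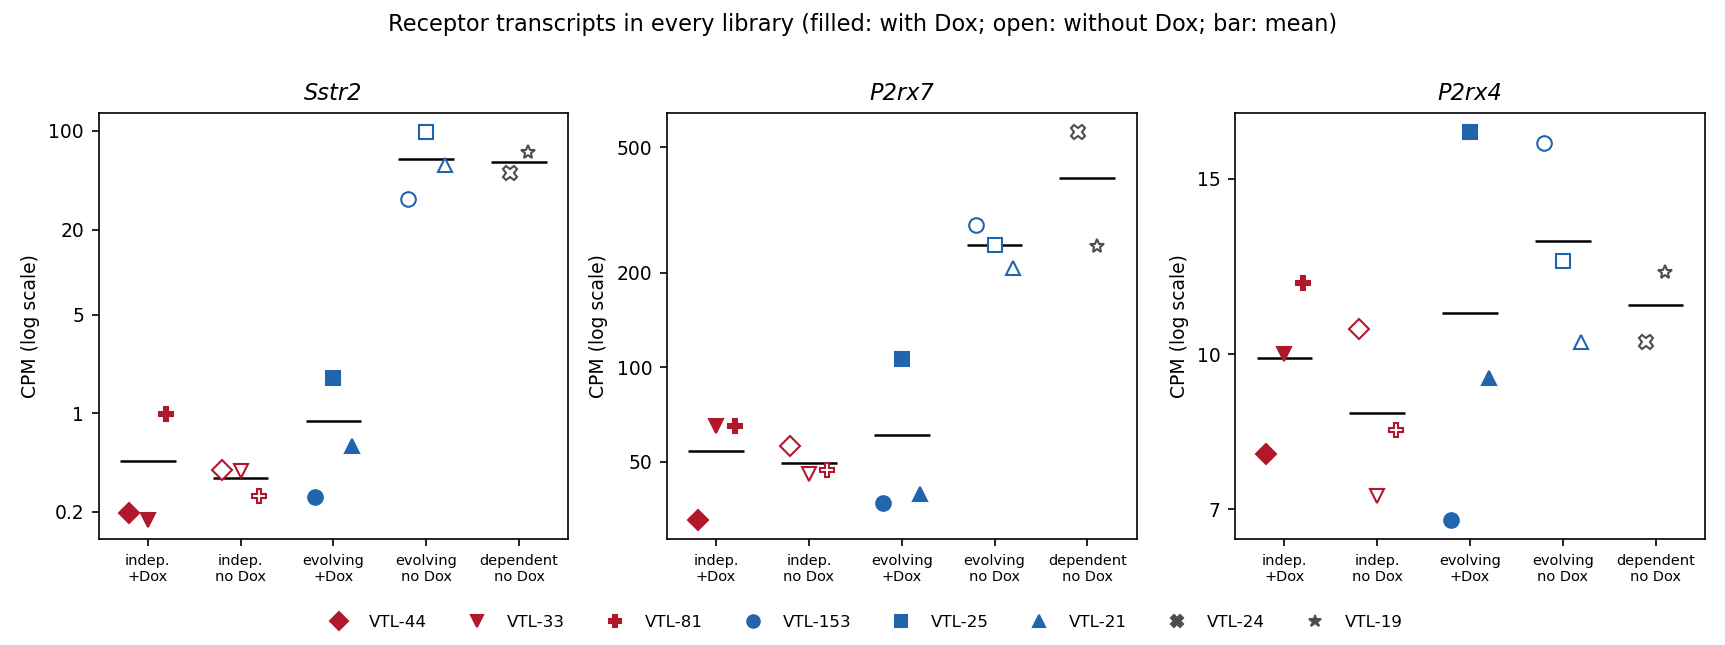
Level of each receptor transcript in CPM on a log axis, by tumour class and Dox, with 1 point per library and a bar at the group mean. Sstr2 lies at 0.176 to 1.78 CPM in 9 libraries and at 32.8 to 98.0 CPM in the 5 evolving and dependent libraries without Dox; P2rx7 shows the same 2 bands at 32.7 to 106 and 206 to 559 CPM, and P2rx4 stays between 6.83 and 16.7 CPM in all 14.

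Set side by side, the lowest of the 5 evolving and dependent libraries without Dox was 18.4-fold above the highest of the other 9 for Sstr2 and 1.95-fold above it for P2rx7. For P2rx4 the bands overlapped. All 9 libraries lay below the 5 for 305 of the 12421 genes, 2.46%, and all 9 lay above them for 204 genes, 1.64%. Since the 2 genes were chosen partly by this pattern, the gap is a description.

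Sstr2 averaged 0.455 ± 0.467 CPM in independent tumours with Dox and 0.349 ± 0.0782 CPM in those without, 0.875 ± 0.805 CPM in evolving tumours with Dox and 62.8 ± 32.9 CPM in those without (SD, n = 3 each), and 60.4 ± 14.2 CPM in dependent tumours (n = 2). P2rx7 averaged 54.2 ± 18.6 CPM in independent tumours with Dox and 49.6 ± 5.68 CPM in those without, 60.8 ± 39.2 CPM in evolving tumours with Dox and 244 ± 38.3 CPM in those without, and 401 ± 224 CPM in dependent tumours. From the lowest mean up, the order for both genes was independent without Dox, independent with Dox and evolving with Dox. Above these, dependent came before evolving without Dox for Sstr2 and after it for P2rx7. Neighbours in either order overlapped, except at the step above evolving with Dox. P2rx4 averaged 9.93 ± 1.95 CPM in independent tumours with Dox and 8.73 ± 1.70 CPM in those without, 11.0 ± 5.14 CPM in evolving tumours with Dox and 13.0 ± 3.03 CPM in those without, and 11.2 ± 1.31 CPM in dependent tumours. From the lowest up its order was independent without Dox, independent with Dox, evolving with Dox, dependent and evolving without Dox, and all neighbours overlapped.

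Because the genes differ in exon length (2143 bases for Sstr2, 5970 for P2rx7 and 7025 for P2rx4), their levels were compared as CPM per kb of exon. In the 5 evolving and dependent libraries without Dox, Sstr2 reached 15.3 to 45.7 CPM per kb, P2rx7 34.6 to 93.7 and P2rx4 1.46 to 2.32. Sstr2 exceeded P2rx7 only in VTL-25. In the other 9 libraries Sstr2 had 0.0823 to 0.832 CPM per kb, P2rx7 5.48 to 17.7 and P2rx4 0.972 to 2.38, so that Sstr2 was there the lowest of the 3.

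The balance of the neighbouring P2X genes moved with P2rx7. The ratio of P2rx7 to P2rx4, in CPM per kb, was 4.85 to 7.64 in independent tumours with Dox, 6.24 to 7.46 in those without, 4.89 to 7.44 in evolving tumours with Dox and 20.4 to 23.5 in evolving tumours without Dox. It was 64.0 in VTL-24 and 23.5 in VTL-19. VTL-25 with Dox, which had the highest P2rx7 level of the evolving tumours with Dox, had a ratio of 7.44, against 6.36 in VTL-153 and 4.89 in VTL-21.

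The contrast of Dox in the evolving tumours was not the one that chose the genes. Its libraries without Dox lay on the high side of that choice, however. For Sstr2 and P2rx7 its values are therefore given as a description and not as an independent test. Sstr2 fell with Dox in all 3 evolving tumours, to 0.771% of the level without Dox in VTL-153, 1.82% in VTL-25 and 1.02% in VTL-21. These are 130-, 54.9- and 97.9-fold differences between the 2 libraries that carry a tumour's number, and those of VTL-25 led with different Trbv genes. Of all genes, 17.6% were lower with Dox in all 3 of these tumours. The fitted log2 change, with minus without Dox, was −6.39 (SE 0.63, 95% interval −7.87 to −4.90, n = 3 tumours), and it passed edgeR's quasi-likelihood test with Benjamini-Hochberg adjustment (adjusted p = 0.0126). In this comparison 2.13% of the 12360 genes tested passed, 1.03% of the genes tested in the lower direction, and Sstr2 ranked at 19 by p. Without VTL-25 the change was −6.77 with an adjusted p of 0.0501, just outside the threshold of 0.05. Over all 12 alternatives the adjusted p ran from 4.68e-28 to 0.0501.

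P2rx7 was lower with Dox in the same 3 tumours, at 13.1% of the level without Dox in VTL-153, 43.4% in VTL-25 and 19.1% in VTL-21, and the groups did not overlap. Such a lack of overlap downwards was found in 10.2% of genes. The log2 change was −2.18 (SE 0.40, 95% interval −3.14 to −1.22) and narrowly missed edgeR's threshold (adjusted p = 0.0522). Over the 12 alternatives the estimate ran from −2.66 to −1.81, the adjusted p from 7.30e-08 to 0.131, and 4 of 12 passed. Without VTL-25 the change was −2.66 (adjusted p = 0.0549).

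P2rx4 had no common direction with Dox. It stood at 41.9% of the level without Dox in VTL-153, 135% in VTL-25 and 91.7% in VTL-21. The log2 change was −0.31 (SE 0.39, 95% interval −1.24 to 0.63, edgeR adjusted p = 0.780), so a change as large as that fitted for P2rx7 lay outside its interval. The interval of P2rx7, −3.14 to −1.22, just overlapped that of P2rx4. Without VTL-25 the estimate was −0.69 (adjusted p = 0.632), and without VTL-153 it was 0.14. The middle 90% of all genes ran from −1.90 to 1.40 in this comparison.

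Dox in the independent tumours went with no common direction in any of the 3 genes. Sstr2 was lower with Dox in VTL-44 (49.1%) and VTL-33 (45.1%) and higher in VTL-81 (385%), all from 18 reads or fewer, with a log2 change of 0.07 (95% interval −1.54 to 1.68, edgeR adjusted p = 1). P2rx7 stood at 58.4% of the level without Dox in VTL-44, 142% in VTL-33 and 138% in VTL-81, with a log2 change of 0.07 (95% interval −0.84 to 0.99, edgeR adjusted p = 1). P2rx4 stood at 75.1%, 139% and 141% in the same tumours, with a log2 change of 0.19 (95% interval −0.73 to 1.10, edgeR adjusted p = 1). Across all genes 0 passed edgeR's test here (0%), 87 had an unadjusted p under 0.05, and DESeq2 and limma voom also called 0.

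With Dox, P2rx7 and P2rx4 moved in the same direction as the summed myeloid markers in each independent tumour. Sstr2 did so in VTL-44 and VTL-81 but not in VTL-33. These stood at 786 CPM with Dox against 1427 CPM without in VTL-44, at 163 against 65.8 CPM in VTL-33 and at 2005 against 177 CPM in VTL-81. In the evolving tumours they stood at 19.2 against 160 CPM in VTL-153, 24 against 213 CPM in VTL-25 and 169 against 16.4 CPM in VTL-21. In VTL-153 and VTL-25 the markers, P2rx7 and Sstr2 were all lower with Dox. In VTL-21 the markers were higher with Dox while P2rx7 was at 19.1% and Sstr2 at 1.02%. The part of the markers in these or the other results was not tested. None of the 9 markers passed edgeR's test in any comparison (median log2 change with Dox −2.06 in evolving and 1.10 in independent tumours).

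The difference between the classes in the response to Dox (independent minus evolving) was 6.46 for Sstr2 (SE 0.90, 95% interval 4.33 to 8.59) and 2.25 for P2rx7 (SE 0.55, 95% interval 0.94 to 3.57). This contrast contains the independent and evolving libraries without Dox, whose levels entered the choice of these genes, so both values are given as a description and not as an independent test. By edgeR 15 of 12360 genes, 0.121%, passed for this contrast, and neither of these genes was among them. For P2rx4 the difference was 0.49 (95% interval −0.81 to 1.80).

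**Figure D2:**
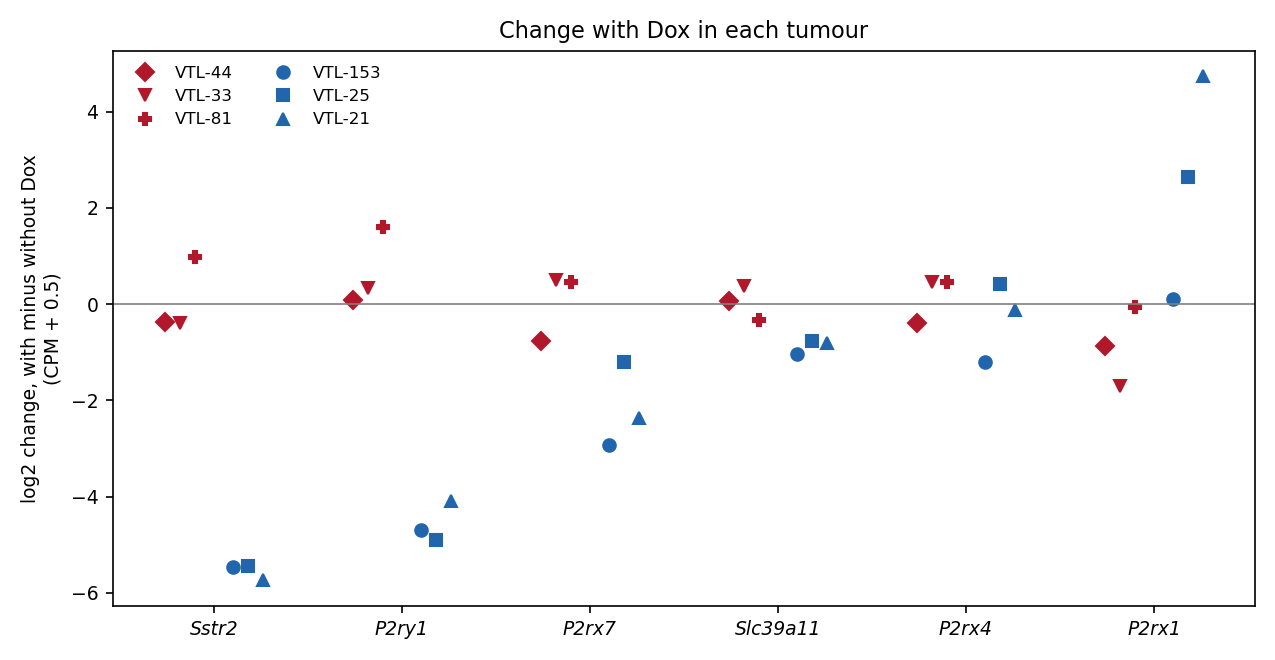
Log2 change with minus without Dox in each tumour, from CPM + 0.5, for the receptors, P2ry1, P2rx1 and the overlapping gene Slc39a11, with 1 symbol per tumour (independent left, evolving right of each gene). Sstr2 lies between −5.74 and −5.43 in the 3 evolving tumours and between −0.40 and 0.98 in the 3 independent ones; P2rx7 lies between −2.92 and −1.20 in the evolving tumours and P2rx4 on both sides of 0.

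Among tumours without Dox, the independent class had 0.349 CPM of Sstr2 on average against 60.4 CPM in the dependent class and 62.8 CPM in the evolving class. The fitted log2 differences were −7.42 (independent minus dependent) and −7.47 (independent minus evolving). For P2rx7 they were −3.01 and −2.30, and the first was −2.29 without VTL-24. All libraries of the independent class lay below all of the others for both genes. These contrasts chose the genes and carry no test. Over all genes, edgeR called 0.0972% of 12348 in the first contrast and 0.259% in the second, and the groups did not overlap, with the independent class lower, in 13.2% and 12.1%.

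P2rx4 can be tested in these contrasts. Its log2 difference was −0.36 for independent minus dependent (SE 0.30, 95% interval −1.07 to 0.35, edgeR adjusted p = 0.654) and −0.57 for independent minus evolving (SE 0.27, 95% interval −1.21 to 0.07, edgeR adjusted p = 0.352). Both intervals exclude differences as large as those fitted for P2rx7. Since those values chose P2rx7, setting the 2 genes against each other here is a description. The 2 contrasts share the independent libraries.

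The evolving tumours without Dox were set against the dependent ones, a comparison with no independent tumour in it. Both groups lay on the high side of the choice of Sstr2 and P2rx7, however, which favours similar levels. For Sstr2 and P2rx7 the values are therefore given as a description and not as an independent test. Sstr2 differed by 0.06 on the log2 scale (SE 0.42, 95% interval −0.93 to 1.05), P2rx7 by −0.71 (SE 0.33, 95% interval −1.48 to 0.05) and P2rx4 by 0.21 (SE 0.31, 95% interval −0.50 to 0.93), each with an edgeR adjusted p of 1.00. For P2rx7 the lower mean of the evolving class rested on VTL-24, and without that tumour the difference was 0.01. The sign of the Sstr2 difference turned with the tool and with the tumour left out (−0.42 to 0.36). In this comparison edgeR called 0 of 12348 genes (0%), with 419 at an unadjusted p under 0.05, and DESeq2 called 64 and limma voom 0.

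The level of Lmo2 went with that of the receptors in all libraries but VTL-33 without Dox. The 5 libraries high in both receptors had 120 to 708 CPM of Lmo2. Both receptors were low in all libraries with Dox (0.198 to 8.46 CPM of Lmo2). They were also low without Dox in VTL-44 (9.28 CPM) and VTL-81 (27.2 CPM). VTL-33 without Dox had 600 CPM of Lmo2, within the 303 to 708 CPM of the evolving tumours without Dox. It had 0.391 CPM of Sstr2 and 45.7 CPM of P2rx7. The part of Lmo2 in the receptor levels was not tested. Less Lmo2 (142 CPM in VTL-24, 120 CPM in VTL-19) went with high levels of both receptors in the dependent class. VTL-33 also shared Trbv24 as its leading beta variable gene with the 3 evolving tumours without Dox.

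Sstr2 was the only gene of the somatostatin system in the table. The other receptors Sstr1, Sstr3, Sstr4 and Sstr5 and the ligands Sst and Cort were not listed. Of 14 genes that relay or limit signals of Gi-coupled receptors, 11 were in the table, and edgeR called 0 of them in any comparison. With Dox in the evolving tumours 2 had a higher and 9 a lower estimate, with a median of −0.17 against −0.00 for all genes, and Gnai3 and Adcy9 came nearest to a call. Gnai3, an inhibitory G protein alpha subunit, had 257 ± 59.9 CPM with Dox against 454 ± 50.3 CPM without (log2 change −0.84, SE 0.19, edgeR adjusted p = 0.0815). Adcy9, an adenylyl cyclase, had 7.60 ± 2.89 CPM against 20.9 ± 4.74 CPM (−1.50, SE 0.36, edgeR adjusted p = 0.0958). Without VTL-25 the changes were −0.63 for Gnai3 and −1.59 for Adcy9 (edgeR adjusted p = 0.280 and 0.255). Gnai2, the other Gi alpha subunit gene in the table, had 472 ± 61.6 CPM with Dox and 474 ± 51.3 CPM without.

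Of the 7 P2X channels, P2rx1, P2rx4 and P2rx7 were in the table. P2rx1, an ATP-gated channel that desensitises quickly, did not share the pattern of P2rx7. It had 68.2, 19.0 and 44.1 CPM in VTL-44, in VTL-33 and in VTL-81 with Dox, against 125, 63.1 and 46.1 CPM without. It had 92.1, 124 and 184 CPM in VTL-153, in VTL-25 and in VTL-21 with Dox, against 86.1, 19.4 and 6.38 CPM without. The dependent class had 6.87 and 10.7 CPM, the lowest mean of the 5 groups. The log2 change with Dox was 2.54 in evolving tumours (SE 0.93, edgeR adjusted p = 0.240) and −0.89 in independent tumours (SE 0.79, edgeR adjusted p = 1). Independent exceeded dependent tumours without Dox by 3.15 (SE 1.10, edgeR adjusted p = 0.296). None of these passed edgeR's test. DESeq2 called the change in evolving tumours (2.56, adjusted p = 0.0263) and the difference between independent and dependent tumours (3.14, adjusted p = 0.0100). Without VTL-25 the change in evolving tumours was 2.41 (edgeR adjusted p = 0.569).

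Of 9 P2Y receptors, the G protein-coupled branch of the ATP and ADP receptors and their relatives, 5 were in the table. P2ry1, an ADP receptor, was the 1 gene that edgeR called in any of these families beside the members. It had 0, 0.0495 and 0.246 CPM in VTL-153, in VTL-25 and in VTL-21 with Dox, against 12.4, 16.0 and 12.1 CPM without, which makes 6 reads in 3 libraries against 917. The log2 change was −7.31 (SE 1.29, n = 3 tumours, edgeR adjusted p = 0.0442). Without VTL-25 the change was −6.89 and lost its call (edgeR adjusted p = 0.171). It passed under 7 of 12 alternatives and in 2 of 6 fits that left out a tumour (VTL-21 or VTL-44), with an adjusted p of 6.42e-08 to 0.171 over the alternatives. P2ry1 had 6.36 and 12.8 CPM in VTL-24 and VTL-19 and at most 1.16 CPM in any independent library. Its high libraries were thus the 5 in which Sstr2 and P2rx7 were high. Such a split, with the other 9 libraries all below these 5, was found in 2.46% of genes. The other 4 listed P2Y genes (P2ry10, P2ry10b, P2ry13 and P2ry14) did not pass in any comparison.

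**Figure D3:**
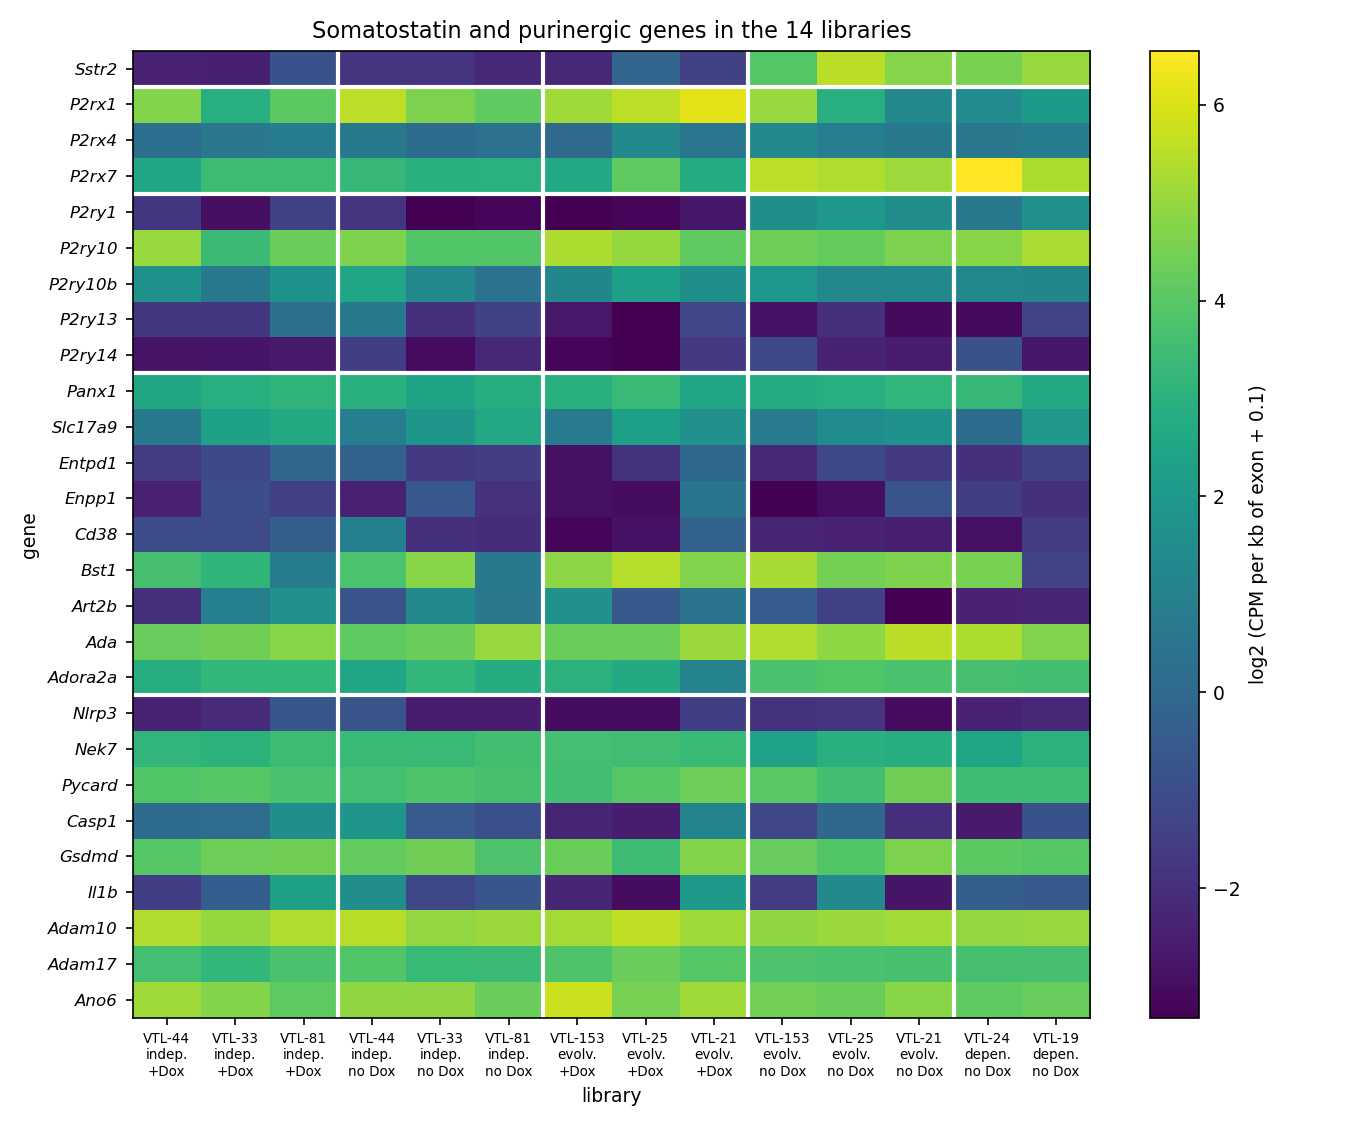
Heat map of log2 (CPM per kb of exon + 0.1) for the listed somatostatin, P2X, P2Y, nucleotide handling and P2X7 effector genes (rows, lists split by white lines) in the 14 libraries (columns, groups split by white lines). Sstr2, P2ry1 and P2rx7 are brighter in the 5 right-hand columns, the evolving and dependent tumours without Dox, than in the other 9, whereas rows such as P2rx4, Panx1 and Adam17 are even across the columns.

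Of 15 genes that release, break down or sense nucleotides and adenosine outside the cell, 9 were in the table and edgeR called 0 in any comparison. With Dox in the evolving tumours their median log2 change was −0.01. The adenosine receptor gene Adora2a had 16.8 ± 9.50 CPM with Dox against 41.7 ± 2.75 CPM without (−1.51, SE 0.37, edgeR adjusted p = 0.102), and Ada, which encodes adenosine deaminase, had 49.1 ± 15.5 against 77.4 ± 17.3 CPM (−0.67, SE 0.17, edgeR adjusted p = 0.103). Art2b, an enzyme that can open P2X7 by ADP-ribosylation, was scarce, at 4.69 ± 3.65 against 0.867 ± 0.902 CPM (2.86, SE 1.24, edgeR adjusted p = 0.317). Without VTL-25 the changes were −1.68 for Adora2a, −0.74 for Ada and 4.00 for Art2b, with edgeR adjusted p of 0.234 to 0.350. Cd38, whose product consumes NAD, had 0.0506, 0.149 and 2.95 CPM in VTL-153, in VTL-25 and in VTL-21 with Dox against 0.400, 0.361 and 0.315 CPM without. Entpd1, whose product breaks down ATP, had 0.202, 0.941 and 4.86 CPM with Dox against 0.650, 1.88 and 1.21 CPM without. Both were lower with Dox in VTL-153 and VTL-25 and higher in VTL-21.

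Of 10 genes that act downstream of P2X7, 9 were in the table and edgeR called 0 in any comparison, with a median of −0.04 for Dox in the evolving tumours. Nlrp3, the inflammasome sensor, had 0.101, 0.0991 and 1.03 CPM in VTL-153, in VTL-25 and in VTL-21 with Dox against 0.700, 0.721 and 0.0899 CPM without. Casp1, its protease, had 0.152, 0.0991 and 3.14 CPM with Dox against 0.5, 1.36 and 0.225 CPM without. Il1b, a cytokine matured by that protease, had 0.202, 0.0495 and 7.27 CPM with Dox against 0.450, 4.57 and 0.0899 CPM without. All 3 were lower with Dox in VTL-153 and VTL-25 and higher in VTL-21. The summed myeloid markers moved the same way in each of these tumours (169 against 16.4 CPM in VTL-21), and their part in this was not tested. Genes for the sheddases Adam10 (199 ± 36.9 CPM with Dox, 163 ± 16.6 CPM without) and Adam17 (116 ± 20.1 and 94.2 ± 3.67 CPM) and for the lipid scramblase Ano6 (460 ± 196 and 286 ± 48.1 CPM) were well expressed under both conditions. Nek7, a partner of NLRP3, came nearest to a call (82.0 ± 8.22 against 48.1 ± 9.34 CPM, log2 change 0.78, SE 0.17, edgeR adjusted p = 0.0743), with 0.88 without VTL-25 (edgeR adjusted p = 0.169).

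No gene around Sstr2 or P2rx7 had an estimate as low as theirs with Dox in the evolving tumours or between independent and dependent tumours. Sstr2 and P2rx7 were chosen as low in independent tumours and their neighbours were not. Setting them against their neighbours is therefore a description. Within 250 kb of Sstr2, 6 other genes were in the table, and edgeR called 0 of them in any comparison. With Dox in the evolving tumours they ranged from −0.89 (Slc39a11) to 0.64 (Cpsf4l), with a median of −0.17, and Cpsf4l was at 0.04 without VTL-25. Cpsf4l had the widest difference between classes, with independent above dependent tumours by 5.56 (SE 0.69, edgeR adjusted p = 0.0548). Evolving tumours were also above dependent ones, by 4.34 (SE 0.66, edgeR adjusted p = 0.717). Independent exceeded evolving tumours by 1.22 (SE 0.47, edgeR adjusted p = 0.265). Slc39a11, a zinc transporter gene that spans Sstr2 on the other strand, had 19.5, 24.6 and 24.3 CPM in VTL-153, in VTL-25 and in VTL-21 with Dox against 40.5, 42.3 and 43.1 CPM without. Its log2 change was −0.89 (SE 0.19, edgeR adjusted p = 0.0702) and −0.94 without VTL-25 (edgeR adjusted p = 0.211), in the direction of Sstr2 and far smaller. Among tumours without Dox, independent minus dependent was −1.29 (SE 0.30, edgeR adjusted p = 0.155) and independent minus evolving −0.97 (SE 0.27, edgeR adjusted p = 0.164). Its highest level among the independent libraries and the evolving ones with Dox, 25.8 CPM, lay below its lowest elsewhere, 36.0 CPM. Such a split downwards was found in 2.46% of genes. The strand setting of the counting is not given in the sources used here, but the exons share 0 bases.

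Around P2rx7, 8 other genes besides P2rx4 were in the table, and edgeR called 0 in any comparison. With Dox in the evolving tumours they ranged from −1.06 (Camkk2) to 0.24 (Atp2a2), with a median of 0.00. Camkk2, a kinase activated by calcium and calmodulin that lies beyond P2rx4, had 45.8, 81.3 and 37.9 CPM in VTL-153, in VTL-25 and in VTL-21 with Dox against 95.8, 126 and 106 CPM without (−1.06, SE 0.20, edgeR adjusted p = 0.0562). Without VTL-25 its change was −1.27 (edgeR adjusted p = 0.0958). Among tumours without Dox, independent minus dependent was −1.20 for Camkk2 (SE 0.23, edgeR adjusted p = 0.102). Independent minus evolving was −1.31 (SE 0.21, edgeR adjusted p = 0.0607). P2rx4, which lies between P2rx7 and Camkk2, had smaller estimates than either in each of these comparisons. For P2rx7 this is a description, since its low level in independent tumours chose it.

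**Figure D4:**
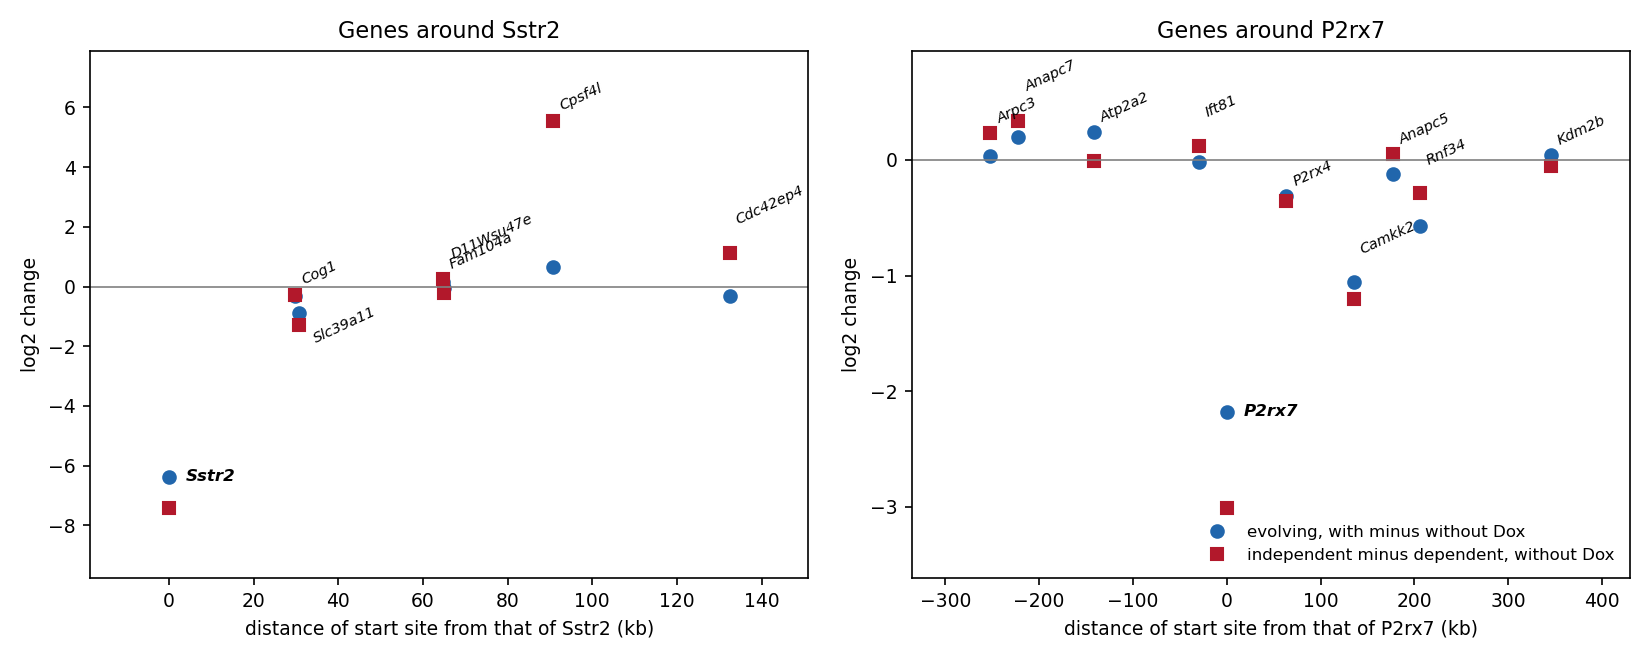
Log2 change of the genes within 250 kb of Sstr2 (left) and P2rx7 (right), by distance of their start sites in kb, for evolving tumours with minus without Dox (circles) and independent minus dependent tumours without Dox (squares). Sstr2 at −6.39 and −7.42 and P2rx7 at −2.18 and −3.01 lie below their neighbours. Both were chosen as low in independent tumours, so their place is a description. Slc39a11 at −0.89 and −1.29 and Camkk2 at −1.06 and −1.20 are the next lowest in their panels.

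Patterns most like each receptor were sought by Pearson correlation of log2 (CPM + 0.5) over the 14 libraries, among 11226 genes. For Sstr2 they were Ccdc112 (r = 0.987), Armcx4 (0.986), Arhgap6 (0.984), Armcx1 (0.983) and Adgrd1 (0.972), and 69 genes exceeded 0.9. For P2rx7 they were Pkd1l3 (r = 0.970), Pcdh7 (0.949), Ccdc112 (0.944), Armcx4 (0.943) and Tes (0.936), and 18 genes exceeded 0.9. Ccdc112 and Armcx4 stood among the first 5 for both receptors. Sstr2 and P2rx7 correlated with each other at 0.933, which put Sstr2 at rank 6 for P2rx7 and P2rx7 at rank 32 for Sstr2. Both were chosen as lower in independent tumours, which favours a high correlation between them, and P2rx4 was not chosen in this way.

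For these genes the 14 libraries fell into the same clusters of 5 and 9, so the correlations over all 14 are a description. Armcx4 had 0 to 0.446 CPM in the 9 and 53.7 to 107 CPM in the 5, and Pkd1l3 had 0.478 to 2.48 CPM against 6.61 to 25.6 CPM. When ranks replaced values (Spearman), 0 of the 5 remained for Sstr2 and 0 of 5 for P2rx7. P2rx4 correlated less with any gene, at most 0.855 (Gripap1), and at 0.518 with Sstr2 and 0.607 with P2rx7. Among the 11226 genes it ranked at 1534 for Sstr2 and at 836 for P2rx7. For P2rx4, Sstr2 ranked at 790 and P2rx7 at 381.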

How the data were processed

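Gene expression was measured by RNA sequencing in 14 libraries of 8 tumours. Libraries were prepared with the NEBNext Ultra II kit from RNA with an integrity number over 8, per the labels' protocols. STAR 2.5.2b and featureCounts with mm10 are named in the submitters' processing notes, while the annotation, strand setting and any filter are not given in the sources used here. The values the authors deposited and used here were raw counts per gene, and 42 other per-sample columns of the table were not used.

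Counts (18214415 to 24048281 per library) went into edgeR 4.0.16 under R 4.3.3 (TMM factors, default filter with a minimum count of 10, robust quasi-likelihood fits, Benjamini-Hochberg adjustment over all genes tested, threshold 0.05). Dox was fitted on 12 libraries of 6 tumours with tumour as a block, since the titles give both libraries of a tumour the same number, and classes on the 8 libraries without Dox. The correlation of partners' deviations from the group means was 0.0268 to 0.192 in evolving and 0.517 to 0.702 in independent tumours. SE is the change divided by the root of the F statistic, and intervals use its degrees of freedom. Whether tumours came from separate donors is not given in the sources used here, so p-values measure the spread between these tumours. The members and gene lists were chosen with earlier results of these data known. Genes were to be named where called, where their pattern was among the 5 most alike (antigen receptor, predicted and pseudogenes left out), or as further members of the receptor families, and any other list gene or neighbour was named after its values were seen. Sequences are from RefSeq GRCm38.p6, and positions from GENCODE M21, which held 12379 of 12421 identifiers. The fits were tested on simulated data. Alternatives were RLE factors, DESeq2 1.42.0, limma 3.58.1 voom, no filter, a minimum count of 50, no block and each tumour left out.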

Additional observations from a re-analysis of the deposited data

Results flagged for a closer look

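P2rx1 moved in opposite directions with Dox in the 2 classes, lower in all 3 independent tumours (log2 changes of −0.87, −1.71 and −0.06 from CPM + 0.5 in VTL-44, in VTL-33 and in VTL-81) and higher in all 3 evolving tumours (0.10, 2.65 and 4.74 in VTL-153, in VTL-25 and in VTL-21). The fitted difference, independent minus evolving, was −3.43 (SE 1.23) and did not pass edgeR's test (adjusted p = 0.424). VTL-81 and VTL-153 hardly changed.

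P2ry1 was higher with Dox in all 3 independent tumours (0.09, 0.34 and 1.61 in VTL-44, in VTL-33 and in VTL-81) and lower in all 3 evolving tumours (−4.69, −4.91 and −4.08 in VTL-153, in VTL-25 and in VTL-21). The fitted difference was 9.53 (SE 1.76) and did not pass edgeR's test (adjusted p = 0.117), although it passed by DESeq2 (adjusted p = 9.59e-07). P2ry1 in the independent tumours rested on few reads, 0 in VTL-33 without Dox.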

How the results depend on the processing

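With Dox in the evolving tumours 263 genes were called, against 1314 by DESeq2, 73 with no replicate block, 439 by limma voom and 49 to 347 with a tumour left out. P2rx7 passed with RLE factors (−2.19, adjusted p = 0.0488), DESeq2 (−2.19, adjusted p = 7.30e-08), limma voom (−2.16, adjusted p = 0.0224) and a minimum count of 50 (−2.19, adjusted p = 0.0473), and ran from −2.66 to −1.81 with a tumour left out. Sstr2 ran from −6.77 to −6.17 and lost its call without VTL-25 (−6.77), and P2rx4 ran from −0.69 to 0.14. No call on the 3 receptors changed without the block. Calls on Sstr2 and P2rx7 are a description here too.

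In the independent tumours, with a tumour left out, Sstr2 ran from −1.07 (without VTL-81) to 0.61 and P2rx7 from −0.16 (without VTL-33) to 0.49, with −0.13 without VTL-81. For the difference of the Dox changes 15 genes were called, against 549 by DESeq2, 1 with no replicate block, 67 by limma voom and 0 to 58 with a tumour left out. DESeq2 gave 6.47 for Sstr2 and 2.26 for P2rx7, both past the threshold. Levels without Dox entered the choice of these genes, so this is not an independent test.

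For evolving against dependent tumours DESeq2 called 64 genes and 0 to 1 were called with a tumour left out. For Sstr2 and P2rx7 this comparison is a description too. Sstr2 was −0.04 by limma voom and ran from −0.42 (without VTL-25) to 0.36, with −0.16 without VTL-24, and P2rx7 from −1.19 to 0.01 (without VTL-24). For independent against dependent tumours 12 genes were called, against 791 by DESeq2, 0 by limma voom and 2 to 73 with a tumour left out, and P2rx7 ran from −3.50 to −2.29. For independent against evolving tumours 32 were called, against 1068, 7 and 3 to 144. The causes were not tested. Of the 321 values recomputed, 269 kept their direction and side of the threshold or moved by less than the limits set, 37 moved further, 8 changed sign, 6 came to pass the threshold and 1 no longer passed it. Sstr2 rests on 4 to 36 reads in 9 libraries, which limits its fold changes there. Where 1 dependent tumour is left, it is assumed to vary like the others.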
